A study of Mus musculus with 4 samples.

Results

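Tetraspanins are small cell-surface proteins that cross the membrane repeatedly and hold integrins, immune receptors, proteases and one another in shared membrane patches. Most are carried to the surface, to endosomes or onto released vesicles, and leukocytes use several of them to set the position and turnover of adhesion molecules and antigen receptors. In T cells, Cd81, Cd82, Cd9 and Cd53 are known as costimulatory or adhesion-linked surface proteins. Cd37 and Tspan32 are known mainly from blood cells, a group that includes T cells.

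The expression of 10 tetraspanin genes, Tspan31, Tspan32, Tspan13, Cd9, Cd37, Cd53, Cd63, Cd81, Cd82 and Cd151, was examined in splenic regulatory T (Treg) cells with and without the histone H3K36 methyltransferase Setd2. They were found by symbol among 24087 listed genes, all 10 were listed, and 21 other tetraspanins were listed beside them, which makes 31 in all. The 10 genes were chosen by their names with the KO against CTRL results of these same libraries already known, Tspan31 being 10th from the lowest log2 fold change of the genes tested, so their differences between the genotypes are a description. Where the fit across all genes called one of them, that is stated beside the share of all genes called and is no independent test of it.

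Poly(A) RNA was sequenced from CD3+CD4+YFP+ cells of the steady-state spleen of C57BL/6 mice. The KO group (2 libraries) was Foxp3Cre-YFPSetd2f/f and the CTRL group (2 libraries) was Foxp3Cre-YFPSetd2f/+, so all 4 libraries carried the Foxp3-driven Cre-YFP allele and the controls also carried 1 floxed Setd2 allele. Littermates were used, the usual age was 6 to 12 weeks, and each library pooled about 1000000 cells from 2 mice, so the spread between libraries is a spread between pools. The deletion follows Foxp3 expression and is limited to cells that have expressed Foxp3. Levels are in FPKM, fragments scaled by exon length and by library size, which allows levels of different genes to be compared per length.

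The libraries held at least 30575941 to 33184295 reads in genes, as recovered from the steps between low FPKM values. CTRL 1 stood apart at the bottom of the scale: it had 19100 genes above 0 against 15913 to 16410 in the other libraries, and 2431 genes were above 0 in it alone, with a median of 0.0364 FPKM, against 119 to 209 for each of the others. At 1 FPKM or more the 4 libraries held 11084 to 11310 genes. Setd2 itself, summed over all exons, was 23.4 and 25.3 FPKM in CTRL and 21.3 and 19.5 FPKM in KO (its log2 fold change was -0.24, SE 0.076, adjusted p = 0.0970 by limma), and the floxed part could not be seen separately in a gene-level value. The Treg markers (6 genes) summed to 1107 to 1214 FPKM, and the B cell markers (10 genes) to 22.9 to 44.2 FPKM. The Treg sum hides differences between its genes. Both KO values were under the lower CTRL value for 3 of the 6, Foxp3, Il2ra and Ikzf4 (35.5% of all genes tested did so). Both were over the higher CTRL value for 1, Ikzf2 (29.0% of all genes tested), and 2 overlapped. The myeloid markers (10 genes) summed to 200 and 122 FPKM in CTRL and 265 and 102 FPKM in KO, higher in the libraries numbered 1 than in those numbered 2, and the erythroid markers (5 genes) had the same order with 22.7, 4.16, 38.5 and 11.4 FPKM. In bulk RNA, fewer cells with a transcript and less transcript per cell cannot be told apart.

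Upstream sequence is shown for Tspan31, Tspan32 and Cd37, the 3 members called in the fit across all genes described below, to let their start regions be read beside their values. Each window holds the 250 bases before the RefSeq start of the gene (build GRCm38.p6), written 5′ to 3′ on the gene's own strand, and each lies at chr10:127070262-127070511 (minus strand) for Tspan31, chr7:143004796-143005045 (plus strand) for Tspan32 and chr7:45238840-45239089 (minus strand) for Cd37. Capitals mark matches, on either strand, to the letters of a few common promoter elements. The first element searched was CCAAT, the core of the box of that name, which recurs near many start sites. The second was the GC box, searched as GGGCGG and known as a site of Sp family factors. The third was the E-box, searched in the palindromic form CACGTG that several helix-loop-helix factors bind. The last was the TATA box, searched with the letters TATAAA alone.
Tspan31: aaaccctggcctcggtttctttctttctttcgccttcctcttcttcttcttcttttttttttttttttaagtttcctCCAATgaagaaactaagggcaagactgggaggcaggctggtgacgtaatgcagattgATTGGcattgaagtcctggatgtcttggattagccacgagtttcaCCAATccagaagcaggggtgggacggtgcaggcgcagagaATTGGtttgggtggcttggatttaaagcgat
Tspan32: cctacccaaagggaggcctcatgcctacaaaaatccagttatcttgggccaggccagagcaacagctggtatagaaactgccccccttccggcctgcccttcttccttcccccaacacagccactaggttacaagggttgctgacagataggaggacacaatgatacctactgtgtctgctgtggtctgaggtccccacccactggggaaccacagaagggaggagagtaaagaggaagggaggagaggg
Cd37: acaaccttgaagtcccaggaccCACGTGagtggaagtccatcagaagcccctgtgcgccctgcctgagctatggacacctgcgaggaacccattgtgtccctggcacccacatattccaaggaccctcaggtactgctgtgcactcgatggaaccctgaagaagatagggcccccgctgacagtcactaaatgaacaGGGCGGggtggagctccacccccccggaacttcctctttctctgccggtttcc
The Tspan31 window held 4 CCAAT matches over both strands, 7 CpG and a GC content of 46.0%, and none of the other motifs. At least 4 CCAAT matches occurred in 0.84% of the 32851 RefSeq windows of the same length, and at least 1 in 33.8%. The Tspan32 window held none of the 4 motifs and 1 CpG, against a median of 6 CpG over all windows. The Cd37 window held 1 GC box (32.7% of windows hold one), 1 E-box (6.0% of windows) and 8 CpG. A TATA box match, found in 12.4% of windows, was in none of the 3. No match overlapped another, and these are matches of letters and not mapped binding sites.

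Treg cells carried a steep range of tetraspanin transcripts. In the order of mean level, Cd37 and Cd82 came first, followed by Cd53, Tspan32, Tspan13, Cd81, Cd9, Tspan31, Cd151 and Cd63. The ranges over the 4 libraries overlapped between Cd37 and Cd82, between Cd81 and Cd9, and between Cd9 and Tspan31, and no other neighbours in this order overlapped. Cd37 and Cd82 changed places, with Cd82 ahead in 2 of the 4 libraries, whereas Tspan31 was below Cd9 in all 4. By percentile among the 11399 genes tested (those reaching 1 FPKM in 2 or more libraries), Cd37 stood at 98.3, Cd53 at 97.7, Tspan32 at 95.8, Tspan13 at 93.4, Tspan31 at 68.8, Cd151 at 25.1 and Cd63 at 7.67.

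**Figure D1:**
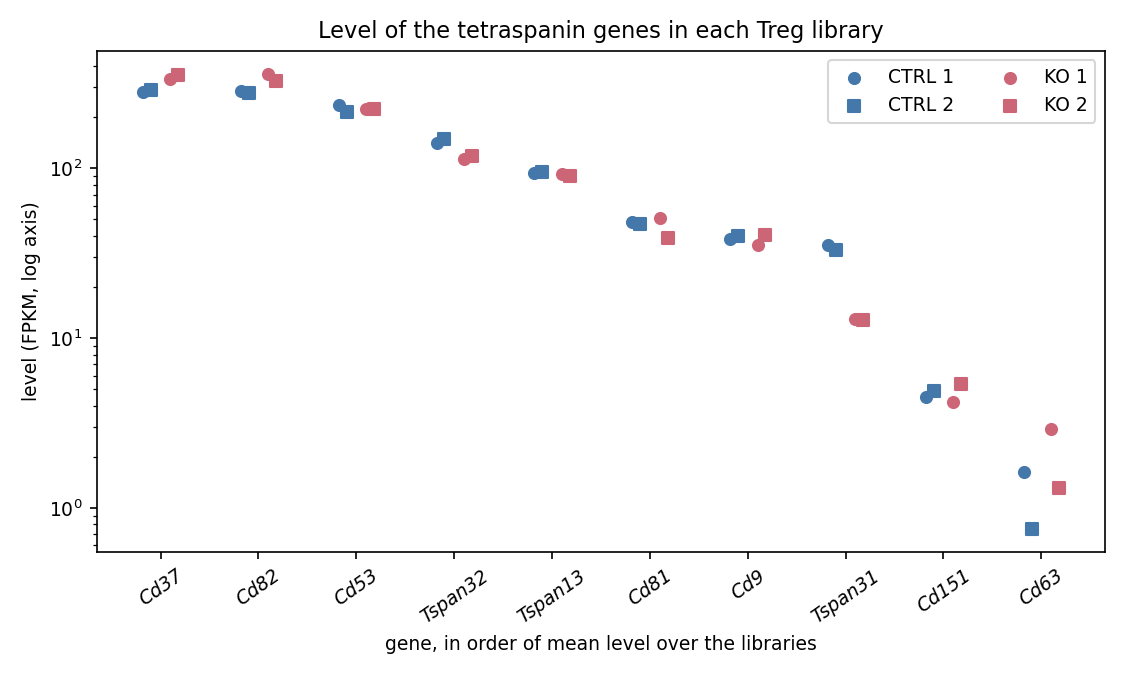
Level of each of the 10 tetraspanin genes in FPKM on a log axis, with 1 point per library (circles, replicate 1; squares, replicate 2; blue, CTRL; red, KO), in order of the mean level. For Tspan31 the KO points lie at 12.8 to 12.9 FPKM and the CTRL points at 33.2 to 35.4 FPKM, and the points of Cd63 spread most.

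The 10 genes made up 93.1% to 93.9% of the summed FPKM of the 31 tetraspanins, and Cd37, Cd82, Cd53 and Tspan32 together 75.7% and 75.9% in CTRL and 78.1% and 78.6% in KO. The summed level of the family was 1243 and 1226 FPKM in CTRL and 1327 and 1301 FPKM in KO, equal to 0.263% to 0.282% of all FPKM. Within that sum, Tspan31 took 2.85% and 2.71% in CTRL and 0.969% and 0.985% in KO.

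**Figure D2:**
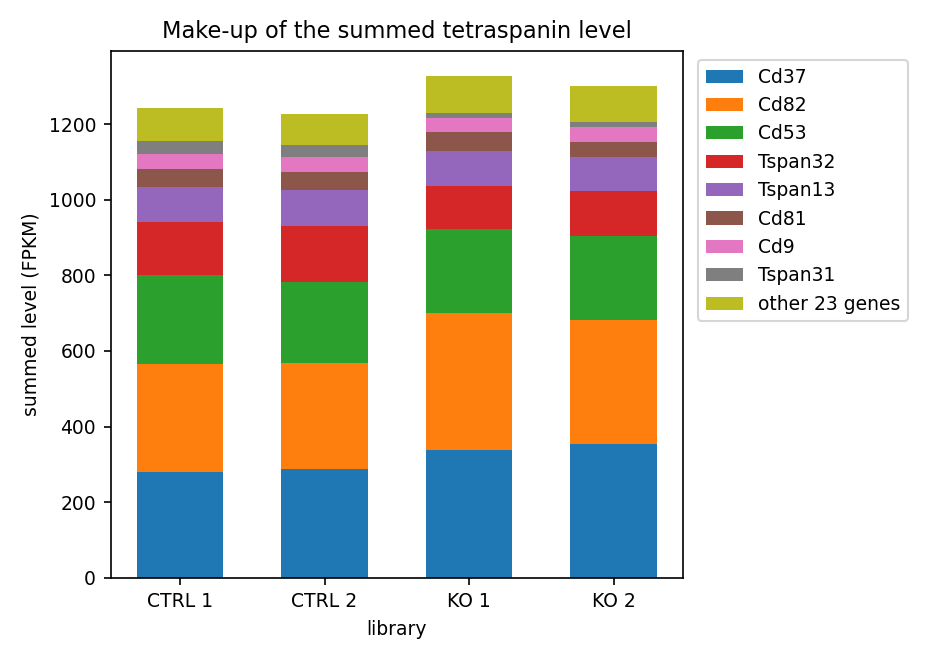
Summed FPKM of the 31 tetraspanins in each library, stacked by gene, with the other 23 genes together at the top. Cd37, Cd82, Cd53 and Tspan32 fill 75.7% to 78.6% of each bar, and the bars reach 1226 to 1327 FPKM.

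The genes are spread over the genome, and the coordinates below are those of GENCODE on GRCm38. Of the 10, 4 lie on chromosome 7: Cd37 (chr7:45233632-45239115), Cd151 (chr7:141467392-141471473), Tspan32 (chr7:143005046-143019644) and Cd81 (chr7:143052739-143067934). Tspan31 and Cd63 (chr10:128900989-128912822) are on chromosome 10. Tspan13 (chr12:36014557-36042500), Cd9 (chr6:125460266-125494791), Cd53 (chr3:106759921-106790149) and Cd82 (chr2:93419111-93463140) each stand alone on their chromosomes among the 10. Cd151 ends 3.8 kb before Tspan4, and Cd82 lies 84.6 kb from Tspan18. Apart from Tspan31, the members that share exon bases with a gene on the other strand were Tspan32, Cd9 (218 bases, with Gm26728), Cd151 (193 bases, with Gm10575), Cd81 (104 bases, with R74862) and Cd37 (13 bases, with Tead2). These made up 10.7% of the exon length of Cd9, 7.04% of that of Cd151 and less of the rest, so the values of these genes could hold reads of the partner where strand was not used.

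To describe how the deletion of Setd2 went with these levels, log2(FPKM + 1) was compared between KO and CTRL with limma over all 11399 genes tested, with p-values adjusted by Benjamini-Hochberg over all of them. Of the 10 genes, Tspan31 and Tspan32 were called lower in KO (2 of 10, where 4.65% of all genes were called lower), Cd37 was called higher (1 of 10, where 5.10% were), and 7 were not called. In either direction 9.75% of all genes were called, and since the genes were chosen with this contrast known, nothing is read from the 3. The KO values were both under the lower CTRL value for 3 genes, Tspan31, Tspan32 and Tspan13 (35.5% of all genes did so), and above them for 2, Cd37 and Cd82 (29.0% of all genes), and the groups overlapped for the other 5. The median log2 fold change was -0.02 over the 10 genes and -0.02 over all genes tested. With any 1 library left out, whether CTRL 1, CTRL 2, KO 1 or KO 2, 0 of the 10 genes were called, and of all genes 0 to 1 in each direction.

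**Figure D3:**
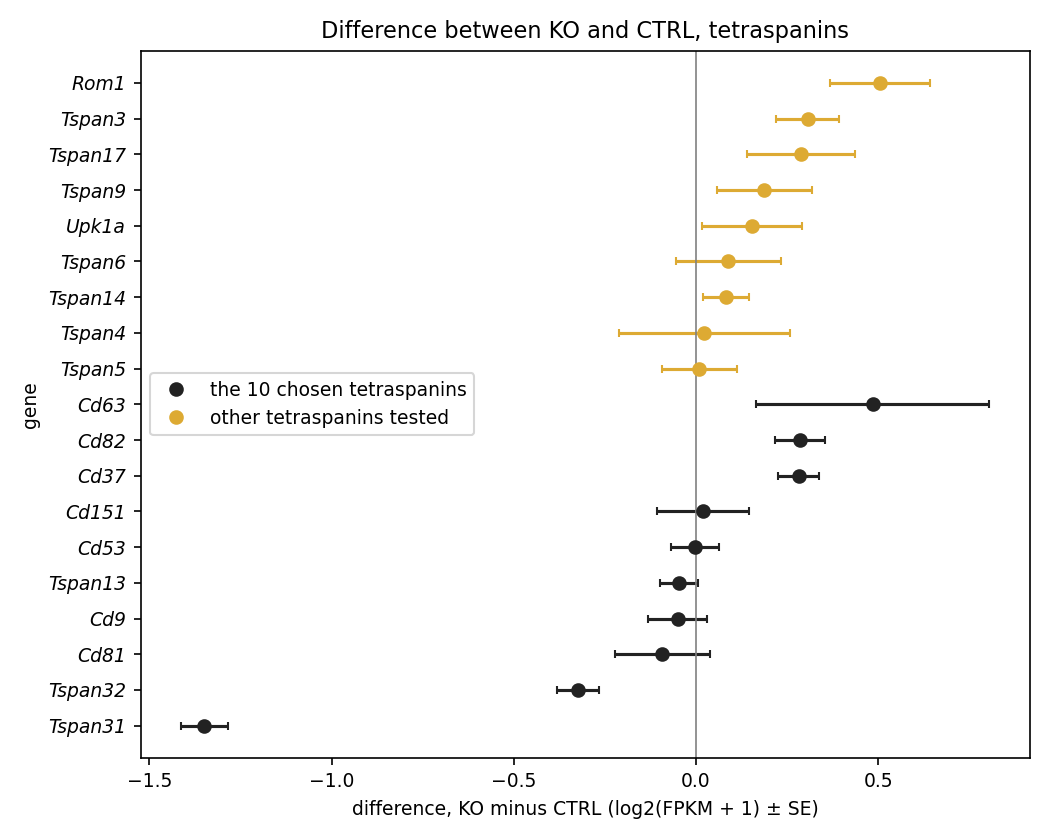
Difference between KO and CTRL on the log2(FPKM + 1) scale for the 10 chosen tetraspanins (black) and the 9 other tetraspanins tested (yellow), with bars of 1 SE from the limma fit (2 libraries a group). Tspan31 lies lowest at -1.35 and Tspan32 next at -0.32, while the 9 others lie between 0.01 and 0.51.

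Tspan31, first described as a gene amplified together with Cdk4 in sarcomas, encodes one of the less studied members of the family. Its level was 35.4 and 33.2 FPKM in CTRL 1 and CTRL 2 and 12.9 and 12.8 FPKM in KO 1 and KO 2. The groups did not overlap, the KO mean was 37.5% of the CTRL mean, and the libraries of 1 genotype differed little, 34.3 ± 1.56 FPKM in CTRL and 12.8 ± 0.0391 FPKM in KO (mean ± SD, n = 2 each). On the recovered reads this was at least 1791, 1773, 701 and 701 reads. The log2 fold change was -1.35 (SE 0.064), and -1.30 to -1.40 with 1 library left out.

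Tspan31 occupies 2985 bases of chromosome 10 (chr10:127067280-127070264, minus strand, GRCm38) and ends tail to tail with Cdk4, the kinase that drives cells through the early cell cycle. The last exons of the pair share 641 bases on opposite strands, equal to 29.2% of the exon length of Tspan31, and the strand setting of the counting is not given in the sources used here, so reads of the shared part could be assigned to either gene or to none. Cdk4 was at 107.0 and 108.7 FPKM in CTRL and 105.6 and 104.0 FPKM in KO. Its log2 fold change was -0.04 (SE 0.050, 95% interval -0.17 to 0.09, adjusted p = 0.607), so a change of the size of that of Tspan31 lay outside the interval. The level of Tspan31 was 33.1% and 30.5% of that of Cdk4 in CTRL and 12.2% and 12.3% in KO.

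On the other side, the noncoding A730063M14Rik starts 111 bases from the start of Tspan31 and runs away from it on the opposite strand, so its start lies inside the upstream window of Tspan31 shown above. It was at 1.48 and 2.98 FPKM in CTRL and 1.12 and 1.46 FPKM in KO, from at least 13 to 34 reads. Each KO value was under each CTRL value, and the difference did not pass the test (log2 fold change -0.46, SE 0.25, adjusted p = 0.253).

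Of the 11 annotated protein-coding neighbours within 100 kb that were listed, 8 were tested. Limma called 0 of the 8, against 9.75% of all genes tested. At an unadjusted p under 0.05, 1 was higher and 2 lower, where 16.3% of all genes tested were higher and 18.4% lower. Limma-voom on the recovered reads called 1 higher and 1 lower, where it called 878 higher and 1008 lower of all 11399 genes tested. The values nearest the threshold were those of Agap2, an Arf GTPase-activating protein (29.1 and 32.0 FPKM in CTRL, 37.9 and 38.9 FPKM in KO, a log2 fold change of 0.32 with adjusted p = 0.0512), and of Marchf9, a membrane-bound ubiquitin ligase (5.17 and 5.66 FPKM in CTRL, 3.91 and 3.81 FPKM in KO, a log2 fold change of -0.40 with adjusted p = 0.0549). Mettl1, a tRNA guanosine methyltransferase, was at 12.5 and 12.1 FPKM in CTRL and 7.79 and 9.92 FPKM in KO (a log2 fold change of -0.44, with adjusted p = 0.0736). The mitochondrial translation factor Tsfm, the phosphatase Ctdsp2, the endoplasmic reticulum lectin Os9 and the ganglioside synthase B4galnt1 had log2 fold changes of -0.10, -0.08, 0.13 and 0.05. The median over the 8 was -0.06, against -0.02 over all genes. Avil and Cyp27b1 were below the filter and Eef1akmt3 was listed at 0.

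**Figure D4:**
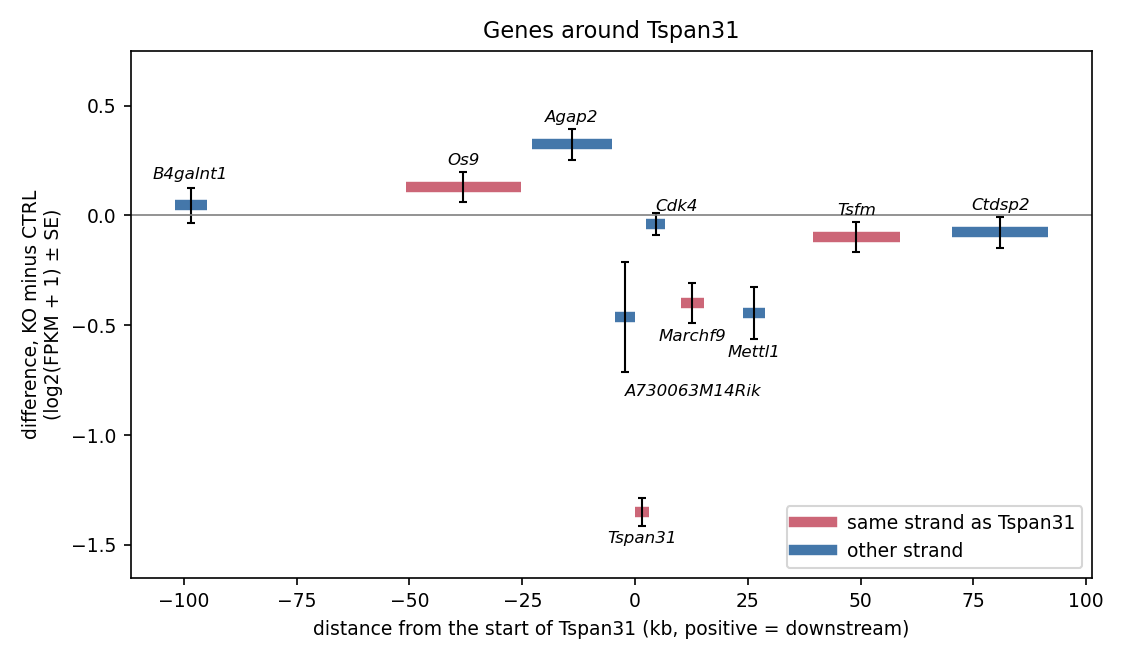
Difference between KO and CTRL on the log2(FPKM + 1) scale for Tspan31, A730063M14Rik and the 8 tested neighbours, drawn to scale against the distance in kb from the start of Tspan31, with bars of 1 SE. Tspan31 lies at -1.35, the overlapping Cdk4 at -0.04 and A730063M14Rik, which starts 111 bases away, at -0.46.

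Over the 4 libraries the 5 tested genes closest to Tspan31, by Euclidean distance on log2(FPKM + 1) centred on each gene's CTRL mean, were Smim10l1 (distance 0.230), Traj37 (0.267), A430005L14Rik (0.309), Prg4 (0.362) and Fpgt (0.382). With 4 libraries this measure mostly ranks genes by how near their own difference lies to that of Tspan31, and their log2 fold changes ran from -1.09 for Fpgt, an enzyme of fucose salvage, to -1.55 for Prg4, which encodes the lubricant proteoglycan lubricin. Smim10l1 was at 12.5 and 12.1 FPKM in CTRL and 5.01 and 4.61 FPKM in KO. None of the 5 is a tetraspanin.

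Tspan32, a haematopoietic tetraspanin, was the other gene called lower. Its level was 140.9 and 149.0 FPKM in CTRL and 113.5 and 117.5 FPKM in KO, so the groups did not overlap and the KO mean was 79.7% of the CTRL mean. The log2 fold change was -0.32 (SE 0.058), and -0.28 to -0.37 with 1 library left out. Tspan32 was not called without a filter on low values, with no variance trend or with the exon length trend removed. It ends 33.1 kb before Cd81, whose difference was -0.09. An antisense transcript, Tspan32os, shares 271 bases with its exons, or 4.35% of their length.

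Cd37, a leukocyte tetraspanin best known from B cells, was called higher. The CTRL libraries held 279.9 and 288.1 FPKM and the KO libraries 338.0 and 353.4 FPKM, with a KO mean of 122% of the CTRL mean and no overlap. The log2 fold change was 0.28 (SE 0.056), and 0.25 to 0.31 with 1 library left out. Under quantile normalization the value was 0.15 and it was not called. Nor was Cd37 called without a filter on low values, with no variance trend or with the exon length trend removed. Beside it, the 10 B cell markers summed to 28.1 and 22.9 FPKM in CTRL and 44.2 and 25.5 FPKM in KO. Of these markers, 3 had both KO values over the higher CTRL value, 0 had both under the lower one and 7 overlapped. Of all genes tested, 29.0% had both KO values over the higher CTRL value and 35.5% had both under the lower one. The 3 were Cd79b (10.9 and 12.8 FPKM in CTRL, 16.0 and 13.7 FPKM in KO), Cd22 (4.20 and 3.25 FPKM in CTRL, 8.58 and 5.86 FPKM in KO) and Pax5 (0.404 and 0.287 FPKM in CTRL, 1.08 and 0.420 FPKM in KO). The defining marker Ms4a1, which overlapped, was at 0.535 to 2.71 FPKM. The part of B cells in the level of Cd37 was not tested.

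Cd82, the metastasis suppressor that restrains integrin-dependent movement, measured 285.2 and 279.3 FPKM in CTRL against 361.7 and 327.4 FPKM in KO. The groups did not overlap and the log2 fold change was 0.29 (SE 0.068), close to that of Cd37 in size, but the KO libraries differed more from each other and it did not pass the threshold. It was called by limma-voom on the recovered reads and with the replicate number as a block. Without KO 1 the value was 0.21, without KO 2 it was 0.36, and under quantile normalization it was 0.13. Cd53, the pan-leukocyte member of the group, was at 234.6 and 214.0 FPKM in CTRL and 222.9 and 224.4 FPKM in KO, with the KO values inside the CTRL range. The share of Cd37 relative to Cd53 was 119% and 135% in CTRL and 152% and 157% in KO.

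Tspan13 had the tightest values of the 10. It was at 93.6 and 94.7 FPKM in CTRL and 92.8 and 89.6 FPKM in KO, all of KO below all of CTRL, yet the log2 fold change was only -0.05 (SE 0.052, 95% interval -0.18 to 0.09). Cd9, an adhesion-linked member that is also a marker of released vesicles, was at 38.2 and 40.0 FPKM in CTRL and 35.3 and 40.3 FPKM in KO. The groups overlapped, and the log2 fold change of -0.05 (SE 0.082) was 0.04 without KO 1. Over the 10 genes the SE of the log2 fold change ran from 0.052 for Tspan13 to 0.32 for Cd63, against a median of 0.0866 over all genes tested.

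Cd81, a costimulator in T cells, measured 48.0 and 47.2 FPKM in CTRL against 50.9 and 39.0 FPKM in KO. The KO libraries lay on both sides of CTRL, and the log2 fold change of -0.09 (SE 0.13) was -0.28 without KO 1 and 0.10 without KO 2. Cd151, which binds laminin receptors of the integrin family, was low at 4.52 and 4.85 FPKM in CTRL and 4.19 and 5.37 FPKM in KO, with overlapping groups and a log2 fold change of 0.02 (SE 0.13).

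Cd63, a marker of late endosomes, granules and exosomes, was the lowest of the 10 and the least settled. It was at 1.62 and 0.752 FPKM in CTRL and 2.90 and 1.31 FPKM in KO, from at least 27 to 106 reads. The libraries numbered 1 were higher than those numbered 2 in both genotypes, the groups overlapped, and the log2 fold change of 0.49 (SE 0.32) ranged from 0.11 without KO 1 to 0.86 without KO 2, and was 0.76 with a pseudocount of 0.1 and 0.82 by limma-voom. The myeloid, erythroid and B cell marker sums had the same order over the library numbers, and so did the T cell marker sum, by a small margin. The sums of the Treg, platelet, and combined CD8 T and NK cell markers did not have it. Among the other tetraspanins Tspan4 had this order, at 3.30 and 2.36 FPKM in CTRL and 3.72 and 2.16 FPKM in KO. The order was not particular to these genes, since Tspan3 and Tspan9 had it too, and so did Cd81, Cd82 and Tspan31 among the 10. The share of all genes with this order was not counted. Defining myeloid markers were above 0 in these libraries, with Lyz2 at 60.0 to 153 FPKM and Csf1r at 16.7 to 34.9 FPKM. The part of these cells in the levels of Cd63 and Tspan4 was not tested.

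**Figure D5:**
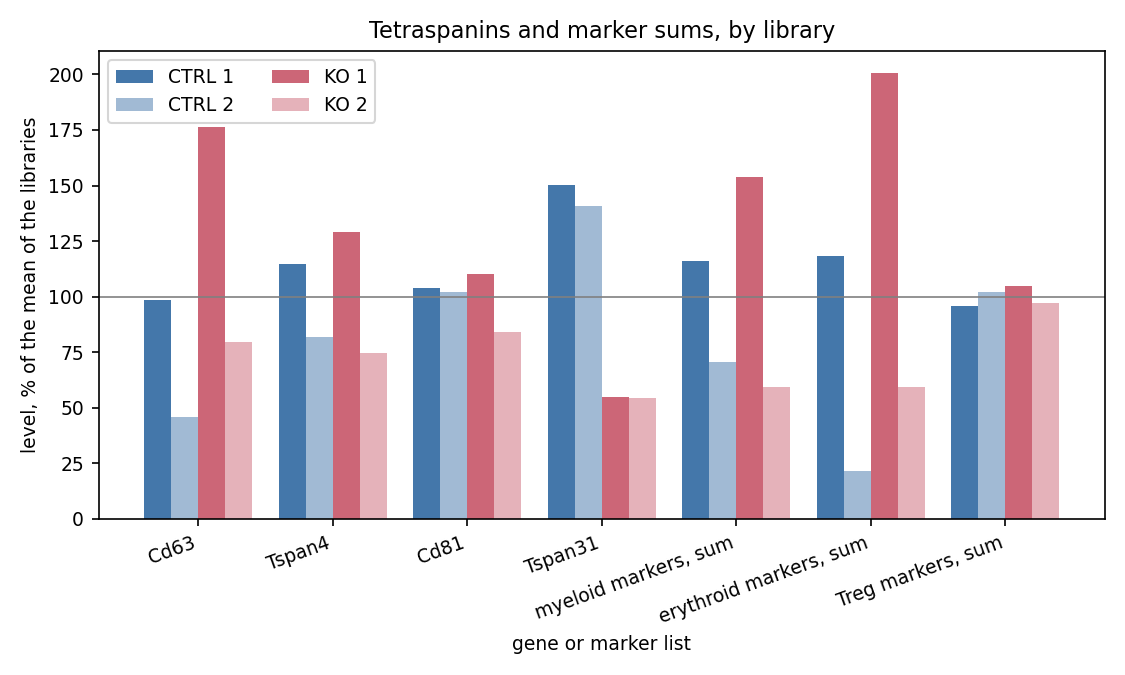
Level in each library as a percentage of the mean of the 4 libraries, for Cd63, Tspan4, Cd81 and Tspan31 and for the summed myeloid, erythroid and Treg markers (full colour, replicate 1; pale, replicate 2). Cd63, Tspan4 and the myeloid and erythroid sums are higher in replicate 1 of each genotype. Cd81 and Tspan31 have that order as well, by a small margin in CTRL for Cd81 and in both genotypes for Tspan31. Tspan31 separates by genotype. The Treg sum, whose genes go in both directions, stays between 1107 and 1214 FPKM.

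Of the 21 other tetraspanins, 9 were tested and 12 were below the filter, 11 of the 21 being under 1 FPKM in all libraries. Limma called 0 of the 9, against 9.75% of all genes tested. Limma-voom on the recovered reads also called 0, where it called 878 of all genes higher and 1008 lower. An unadjusted p under 0.05 was reached by 2, both higher (16.3% of all genes tested were higher at that p). These were Rom1, known from photoreceptor discs (7.27 and 7.17 FPKM in CTRL, 9.24 and 12.3 FPKM in KO, a log2 fold change of 0.51 with adjusted p = 0.0749), and Tspan3 (24.7 and 21.9 FPKM in CTRL, 30.4 and 27.7 FPKM in KO, a log2 fold change of 0.31 with adjusted p = 0.0795). Of the 9, 5 had both KO values over the higher CTRL value and 0 had both under the lower one, against 29.0% and 35.5% of all genes tested. The median log2 fold change of the 9 was 0.15, against -0.02 over all genes tested.

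Tspan14 and Tspan5 belong to the subgroup that escorts the protease Adam10 to the cell surface, as do Tspan17, Tspan15, Tspan10 and Tspan33. Tspan14, at 28.6 to 31.9 FPKM, was the highest of these, with a log2 fold change of 0.08, and Tspan5 was at 6.73 to 7.88 FPKM with 0.01. Tspan17 was at 2.04 and 2.06 FPKM in CTRL and 3.20 and 2.30 FPKM in KO (a log2 fold change of 0.29, with adjusted p = 0.234). Tspan15, Tspan10 and Tspan33 were below the filter. Adam10 itself was at 27.7 and 27.6 FPKM in CTRL and 25.8 and 25.9 FPKM in KO (a log2 fold change of -0.09, with adjusted p = 0.286). Tspan10, Tspan15 and Tspan33 had the library order of Cd63, the libraries numbered 1 above those numbered 2, as Tspan33 shows with 0.576 and 0.354 FPKM in CTRL and 0.636 and 0.288 FPKM in KO. Of the remaining genes tested, Tspan9, Upk1a and Tspan6 were between 0.819 and 1.83 FPKM with log2 fold changes of 0.19, 0.15 and 0.09. Tspan2 came closest to the filter with 0.999 and 0.874 FPKM in CTRL and 0.987 and 1.35 FPKM in KO, and Tspan7, known from the nervous system, was at 0.189 and 0.0325 FPKM in CTRL and 0.543 and 0.286 FPKM in KO, from at least 2 to 34 reads. Tspan1, Tspan8, Tspan11, Tspan12, Upk1b and Prph2 reached at most 0.172 FPKM in any library.

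Proteins that tetraspanins bind or that modify them were read from a list of 19 genes, of which 18 were tested, 1 was called lower, 0 were called higher and 17 were not called. Of all genes tested, 4.65% were called lower and 5.10% higher. Zdhhc2, the palmitoyltransferase that attaches lipid to Cd9 and Cd151, was at 16.6 and 14.1 FPKM in CTRL and 9.93 and 9.38 FPKM in KO. The groups did not overlap, and it fell by 0.62 on the log2 scale (SE 0.097, adjusted p = 0.0377 by limma). This call was lost when any 1 of CTRL 1, CTRL 2, KO 1 and KO 2 was left out. A lone library then stands for a group and almost no gene is called, so the loss does not set Zdhhc2 apart from other genes. At an unadjusted p under 0.05, which 16.3% of all genes reached with a higher and 18.4% with a lower value, the integrin chains Itgb1 and Itgal had values of 0.27 and 0.18, and the integrin chain Itga4 and the hyaluronan receptor Cd44, beside Zdhhc2, values of -0.21 and -0.18. The median over the 18 was 0.11, against -0.02 over all genes tested. H2-Aa, H2-Ab1 and Cd74, which are genes of MHC class II antigen presentation, were higher in the libraries numbered 1, H2-Aa for example at 69.8 and 41.6 FPKM in CTRL and 91.5 and 40.9 FPKM in KO.

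Among 14 genes of endosomal sorting and vesicle release, where the protein of Cd63 is found, 13 were tested, 1 was called higher and 1 lower. Of all genes tested, 5.10% were called higher and 4.65% lower. Chmp4b, a subunit of the membrane-cutting ESCRT complex, rose from 113.6 and 115.6 FPKM in CTRL to 135.4 and 143.3 FPKM in KO (a log2 fold change of 0.28, SE 0.056, with adjusted p = 0.0462 by limma). Lamp1, a main protein of the lysosome membrane, fell from 94.8 and 89.0 FPKM to 69.2 and 58.9 FPKM (log2 fold change -0.52, SE 0.092, adjusted p = 0.0406 by limma). Neither call held when any 1 of CTRL 1, CTRL 2, KO 1 and KO 2 was left out. A lone library then stands for a group and almost no gene is called, so this does not set them apart from other genes. The other lysosomal gene of the list, Lamp2, was at 13.7 and 10.8 FPKM in CTRL and 13.1 and 13.5 FPKM in KO. The median over the 13 was 0.09, against -0.02 over all genes tested. At an unadjusted p under 0.05, 5 had a higher value in KO, Chmp4b included, and 1, Lamp1, a lower value, against 16.3% and 18.4% of all genes tested.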

How the data were processed

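RNA was sequenced from 4 libraries of splenic Treg cells, 2 CTRL and 2 KO. Per the study's methods, the authors aligned paired reads of 150 bp to mm10 with HISAT2 2.2.1 and counted them with featureCounts 2.0.1, and the submitters' processing notes also name edgeR 3.34.0. The deposited values are FPKM per gene. The file names its control columns as wild type, and they were read as the CTRL libraries by their numbers. Annotation for positions and overlaps was GENCODE on GRCm38, and upstream windows came from RefSeq. All 10 members had a window there.

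Genes with at least 1 FPKM in at least 2 libraries (11399) were tested with limma 3.58.1 in R 4.3.3, with an intensity trend on log2(FPKM + 1), two-sided, adjusted p under 0.05 by Benjamini-Hochberg. Fold changes are on that scale, which understates changes of low genes. limma was used in place of the authors' count test because the unit is FPKM. The method was tried on values drawn with its own fitted spread and with known differences built in. Those differences were larger than those of Tspan32 and Cd37, so the trial does not cover calls of their size. Low FPKM values step in whole reads, which were recovered for 100% of 19888 genes above 0 within 0.001 reads (2909 of these genes are above 0 in only 1 library, where any value comes out whole), up to a common factor, so read numbers are lower bounds. The least depth is 30575941 reads, and limma-voom on these reads was an alternative. Interval and SE reflect 2 pools a group.

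The members and lists were chosen with earlier results of these data known. Named were all 10 members, Setd2, each tested other tetraspanin and neighbour of Tspan31, the called partner and vesicle genes and the 5 genes closest to Tspan31. A730063M14Rik, Adam10, Lamp2, the uncalled partner genes and the markers were added after their values were seen. Alternatives were another pseudocount, filter, scaling or variance model, removal of a length trend, a replicate block and leaving out each library. No protein sequences were used here, and 1 gene of the partner and B cell marker lists is not reported by name.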

Additional observations from a re-analysis of the deposited data

How the results depend on the processing

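Without a filter on low values, 0 members, 0 partner genes, 0 vesicle genes and 0 of all genes were called in either direction. With each library left out in turn, members called higher were 0 to 0 and lower 0 to 0, as were partner genes called lower and vesicle genes called higher or lower, and of all genes 0 to 1 were called higher and 0 to 1 lower. A lone library left in a group was then assumed to vary like the other group. The number of members called higher was 0 under quantile normalization, no variance trend and removal of the exon length trend, and 2 under limma-voom on recovered reads and under the replicate block, where Cd82 was called beside Cd37. The number of members called lower was 1, Tspan31, with no variance trend and with the length trend removed. Of all genes, the main fit called 581 higher and 530 lower. Quantile normalization called 524 higher and 479 lower, median-ratio scaling 712 and 470, and the filter on mean FPKM above 5 called 654 and 622. No variance trend called 315 higher and 364 lower, and removal of the length trend 515 and 321. Limma-voom called 878 higher and 1008 lower, and the replicate block 968 and 805. The block also called 2 other tetraspanins higher (Rom1 and Tspan3), 1 partner gene higher, and 1 neighbour of Tspan31 higher and 1 lower. Quantile normalization called 2 partner genes lower and 0 vesicle genes higher. Vesicle genes called higher were 2 with the filter on mean FPKM above 5 and with median-ratio scaling, and 0 with no variance trend or the length trend removed, and those called lower were 0 with no variance trend. A neighbour of Tspan31, Agap2, was called higher (1) with the filter on mean FPKM above 5, median-ratio scaling, limma-voom and the length trend removed, and limma-voom called 1 lower, Marchf9.

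The log2 fold change of Tspan31 ranged from -1.42 to -1.30 over 13 alternatives, and 8 of them called it. Tspan32 ranged from -0.44 to -0.27 with 6 calls, and Cd37 from 0.15 to 0.31 with 5 calls. The values of Cd53 and Cd151 changed sign in 3 alternatives each and those of Cd9 and Cd81 in 1 each. The replicate numbers are shared between the genotypes, and the labels do not say whether same-numbered libraries share a litter or day. The deviations of same-numbered libraries correlated across genes with Pearson's r of 0.342 and Spearman's rho of 0.0553. With 2 pairs, the numbers were not taken as pairs in the main fit. Depth limits Cd63 and A730063M14Rik, and 2 pools a group limit every call. Causes of these differences were not tested.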
